A study of Mus musculus with 43 samples.

Results

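Adipocytes keep their fat in lipid droplets, and 8 genes that build, coat or enlarge these droplets were followed by symbol through every perturbed group and its control: the perilipins Plin1, Plin2, Plin3, Plin4 and Plin5, the droplet fusion gene Cidec, and the assembly genes Fitm2 and Bscl2. They are 8 of the 26264 genes in each of 6 count tables, and all 8 passed the filter on low counts in every table. The series used here holds RNA sequencing of mouse adipocytes and fat, 43 libraries that form 15 groups of 3 (2 of them hold only 2). The series title concerns deletion of RUNX1 or RUNX2, transcription factors that bind DNA with CBFB, in adipocytes and beige fat. Values are CPM (counts scaled to a fixed library total) after TMM scaling within a table, log2 fold changes with the standard error (SE) of the fit, and calls at adjusted p < 0.05 in edgeR's quasi-likelihood (QL) test with Benjamini-Hochberg adjustment over all genes tested.

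Of the groups, 9 were cultures of a line labelled BAT, grown from brown preadipocytes and differentiated into mature brown adipocytes. Runx1 or Runx2 was overexpressed in 2 groups, set against a wild-type group labelled OEV. Runx1, Runx2 or both were knocked out in 3 groups, set against a wild-type knockout control, and the labels do not give the knockout method. The last 2 groups, of 2 libraries each, carried Runx2 without a region labelled IDR or full-length Runx2. The other 6 groups were whole white fat labelled IWAT, the usual name of inguinal white adipose tissue. Adipoq-cre deleted Runx1 or Runx2 in 2 of them, each set against mice with the floxed gene labelled wild type, and Adipoq drives Cre in adipocytes only, so other cells of the pad keep the gene. The last pair, labelled HFD (the usual abbreviation of high-fat diet), was Runx1 knockout against wild type, with no Cre named. Age and sex are not among the labels used here. Separate cultures or animals per library are not stated either, and p-values therefore measure only the spread between these libraries.

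A droplet is a core of triglyceride under a single layer of phospholipid. Seipin, the product of Bscl2, and FITM2 act in the endoplasmic reticulum where droplets bud, the perilipins cover the droplet surface and govern access of lipases, and CIDEC lets a small droplet empty into a larger one, which gives white adipocytes their single large droplet. Brown and beige adipocytes hold many small droplets beside mitochondria, and PLIN5 is the perilipin of such oxidative tissues.

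RUNX proteins bind TGTGGT or TGCGGT, so the 250 bases before the start of each RefSeq transcript of the 8 genes (12 starts, build GRCm38.p6) were searched for these letters on both strands, the motifs not overlapping each other. They occurred in 3 of the 12 windows, 1 of Fitm2 and 2 of Bscl2, against 18.6% of all 32851 promoters of the table. The other motif searched, DR1 (a direct repeat of AGGTCA spaced by a single base), on which PPARG binds with RXR, occurred in 0 of the 12 windows and in 0.0335% of all promoters. A match is a description of the letters only. Shown are the upstream stretches of Plin5, which had the largest fold change of the 8 with either overexpressed factor, and of 2 genes with a RUNX motif, 5′ to 3′ on the strand of the gene with the motif in capitals. Plin5 lies on chr17:56117597-56117798 (minus strand, 202 bases without a motif, and no exon in them in GENCODE M21). Fitm2 lies on chr2:163472630-163472879 (minus strand, within an exon of the antisense noncoding RNA 2310001K24Rik). For Bscl2 the start that lies furthest downstream is shown, chr19:8840253-8840502 (plus strand, no exon in GENCODE M21).
Plin5: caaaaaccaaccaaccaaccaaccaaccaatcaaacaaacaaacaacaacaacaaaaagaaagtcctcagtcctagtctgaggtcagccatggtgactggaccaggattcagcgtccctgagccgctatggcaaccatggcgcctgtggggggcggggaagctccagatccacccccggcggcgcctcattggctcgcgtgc
Fitm2: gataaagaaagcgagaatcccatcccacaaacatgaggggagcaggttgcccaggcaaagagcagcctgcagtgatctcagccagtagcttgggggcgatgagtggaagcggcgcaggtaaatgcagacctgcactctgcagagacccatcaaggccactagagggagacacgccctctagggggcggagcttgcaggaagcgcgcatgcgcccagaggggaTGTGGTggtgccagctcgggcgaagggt
Bscl2: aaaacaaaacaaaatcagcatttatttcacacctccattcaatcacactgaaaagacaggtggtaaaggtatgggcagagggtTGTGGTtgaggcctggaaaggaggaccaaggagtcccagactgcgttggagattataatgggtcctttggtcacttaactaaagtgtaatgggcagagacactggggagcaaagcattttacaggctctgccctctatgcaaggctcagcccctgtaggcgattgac

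Library depth lay between 28.1 and 52.2 M counts. Runx1 averaged 73.9 ± 10.5 CPM in Runx1-overexpressing cultures and 5.57 ± 1.23 CPM in OEV cultures (SD, n = 3 each), and Runx2 averaged 309 ± 25.8 CPM in Runx2-overexpressing cultures and 8.77 ± 0.892 CPM in OEV cultures. Each factor also rose with the other. Runx1 averaged 30.3 ± 2.03 CPM in Runx2-overexpressing cultures (edgeR QL adjusted p = 2.3e-07). Runx2 averaged 16.8 ± 1.37 CPM in Runx1-overexpressing cultures (edgeR QL adjusted p = 3.1e-05). The knockout labels could not be checked in this way: Runx1 averaged 5.43 CPM in cultures labelled Runx1 knockout and 5.24 CPM in their controls, Runx2 averaged 7.61 CPM in cultures labelled Runx2 knockout and 7.71 CPM in the same controls, and a count over a whole gene does not show a short deletion. In double knockout cultures Runx1 averaged 4.72 CPM and Runx2 7.55 CPM. In fat, Runx1 averaged 20.954 CPM in Runx1 knockout IWAT and 32.1 CPM in its control (adjusted p = 0.078), and Runx2 averaged 4.32 CPM in Runx2 knockout IWAT and 9.89 CPM in its control (adjusted p = 0.25). The factor not deleted averaged lower as well. Runx2 stood at 6.96 CPM in Runx1 knockout IWAT and 10.4 CPM in its control (edgeR QL adjusted p = 0.18). Runx1 stood at 11.1 CPM in Runx2 knockout IWAT and 26.9 CPM in its control (adjusted p = 0.22). In HFD fat Runx1 averaged 11.7 CPM in knockout and 14.4 CPM in wild type (adjusted p = 0.95), and Runx2 averaged 10.9 and 7.52 CPM (edgeR QL adjusted p = 0.83). All 14 adipocyte marker genes were detected in all 43 libraries. Libraries that stand apart are named beside the results they touch.

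Per kilobase of exon in the GENCODE M21 models, which are not of the build counted here, Cidec, Plin2 and Plin1 were the most abundant of the 8 in unperturbed cultures. In OEV cultures Cidec stood at 253 ± 25.9, Plin2 at 250.4 ± 15.1 and Plin1 at 227 ± 25.1 CPM per kb (SD, n = 3), neighbours that do not differ beyond their spread, followed by Plin4 at 98.4 ± 16.0 CPM per kb. Fitm2, Plin5, Plin3 and Bscl2 lay between 17.1 and 34.4 CPM per kb.

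In Runx1-floxed control fat Cidec stood far above the rest at 1533 ± 378 CPM per kb, then Plin4 at 457 ± 145, Plin2 at 167 ± 44.3 and Plin1 at 158 ± 25.7 CPM per kb, the last pair not differing beyond their spread. Plin5 came last there, at 3.68 ± 0.61 CPM per kb, behind Plin3 at 6.73 ± 0.947 CPM per kb. HFD wild-type fat had the same pair on top, but Plin5 stood at 22.6 ± 6.58 and Plin3 at 21.6 ± 3.07 CPM per kb, which overlap. The tables were scaled apart, so these levels across tables are descriptions.

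**Figure D1:**
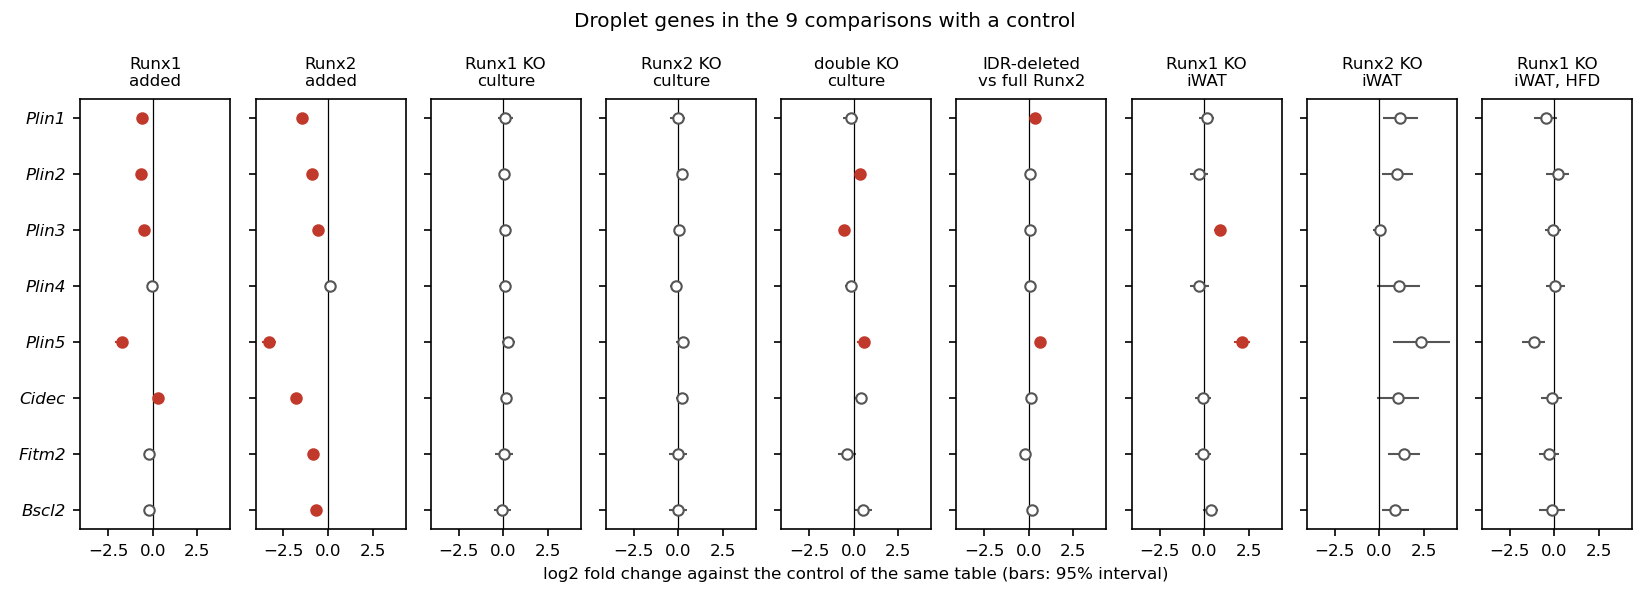
Log2 fold change of the 8 droplet genes (rows) in the 9 comparisons with a control (panels), with the 95% interval as a bar; filled red points passed edgeR's QL test at adjusted p < 0.05. Plin5 lies furthest from 0 of the 8 in both overexpression panels, at -1.75 with Runx1 and -3.31 with Runx2. It lies on the other side, at 2.12, in Runx1 knockout IWAT. Full-length Runx2 serves as the control of the IDR-deleted panel.

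Most of the droplet genes were lower in brown adipocyte cultures overexpressing Runx2 than in OEV cultures, and fewer of them in those overexpressing Runx1. With Runx2, 7 of the 8 fell and 0 rose, where 29.6% of all genes tested fell and 31.3% rose. With Runx1, 4 of the 8 fell and 1 rose, where 25.8% of all genes fell and 28.2% rose. The median log2 fold change with Runx2 was -0.86 over the 8 genes and 0.026 over all genes tested, and with Runx1 it was -0.37 over the 8 genes and 0.058 over all genes tested. Both comparisons share the OEV libraries.

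Plin5, the perilipin that tethers droplets to mitochondria, measured 15.6, 16.8 and 18.0 CPM in Runx1 cultures, 6.51, 5.37 and 5.27 CPM in Runx2 cultures and 54.1, 70.2 and 45.7 CPM in OEV cultures. No library of either overexpression overlapped a control, and every Runx2 library lay below every Runx1 library. The log2 fold change was -1.75 ± 0.16 (SE), adjusted p = 4e-06 with Runx1, and -3.31 ± 0.17 (SE), adjusted p = 2.5e-08 with Runx2 (edgeR QL).

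Plin1, the main coat of adipocyte droplets and the holder of the lipase activator ABHD5, measured 669.9, 719.9 and 665 CPM in Runx1 cultures, 405, 364 and 375 CPM in Runx2 cultures and 984, 1188 and 989 CPM in OEV cultures. The 3 groups did not overlap, with Runx2 lowest. Its log2 fold change was -0.62 ± 0.10 (SE), adjusted p = 0.00026 with Runx1, and -1.47 ± 0.10 (SE), adjusted p = 2.1e-07 with Runx2 (edgeR QL).

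Plin2, the coat of small droplets in most cell types, stood at 561, 582 and 519 CPM in Runx1 cultures, 515, 438 and 454 CPM in Runx2 cultures and 848, 941 and 849.9 CPM in OEV cultures. Plin3, a perilipin that moves from the cytosol onto new droplets, stood at 71.1, 74.6 and 62.9 CPM in Runx1 cultures, 70.6, 62.2 and 65.4 CPM in Runx2 cultures and 104, 104 and 87.2 CPM in OEV cultures. Both fell with either factor, without overlap with OEV. Plin2 changed by -0.67 ± 0.093 (SE), adjusted p = 0.00012 with Runx1, and -0.91 ± 0.094 (SE), adjusted p = 6.8e-06 with Runx2. For Plin3 the values were -0.50 ± 0.10 (SE), adjusted p = 0.0016 with Runx1, and -0.57 ± 0.10 (SE), adjusted p = 0.00048 with Runx2. Without the 3 libraries that carry cardiac muscle transcripts (Runx1 replicate 3 and OEV replicates 1 and 2) the Plin3 call with Runx1 was lost, at -0.26 (adjusted p = 0.1).

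Plin4, a perilipin of nascent droplets that is abundant in white fat, did not pass the test with either factor. It measured 541, 543 and 592 CPM in Runx1 cultures, 666, 624 and 583 CPM in Runx2 cultures and 518, 675 and 513 CPM in OEV cultures, and the groups overlapped. The log2 fold change was -0.026 (95% interval -0.28 to 0.22) with Runx1 and 0.13 (95% interval -0.12 to 0.38) with Runx2. OEV replicate 2 was its highest control library, and without that library the value with Runx2 was 0.29 (adjusted p = 0.018), called higher, as it was at 0.28 (adjusted p = 0.045) without the libraries with muscle transcripts.

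Cidec, the fusion gene, rose with Runx1 and fell with Runx2. It measured 567, 635 and 525 CPM in Runx1 cultures, 135, 128 and 139 CPM in Runx2 cultures and 441, 525 and 444 CPM in OEV cultures. All Runx2 libraries lay far below the controls, while the lowest Runx1 library lay just under the highest control. The log2 fold change with Runx2 was -1.81 ± 0.10 (SE), adjusted p = 6.3e-08. With Runx1 it was 0.29 ± 0.10 (SE), adjusted p = 0.028, a call lost when OEV replicate 1 or 3 or Runx1 replicate 1 or 2 was left out, with log2 fold changes from 0.22 to 0.37 over all single libraries left out. It was also lost with no filter on low counts, at 0.27 (adjusted p = 0.063), and with the compared groups alone, at 0.29 (adjusted p = 0.051).

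**Figure D2:**
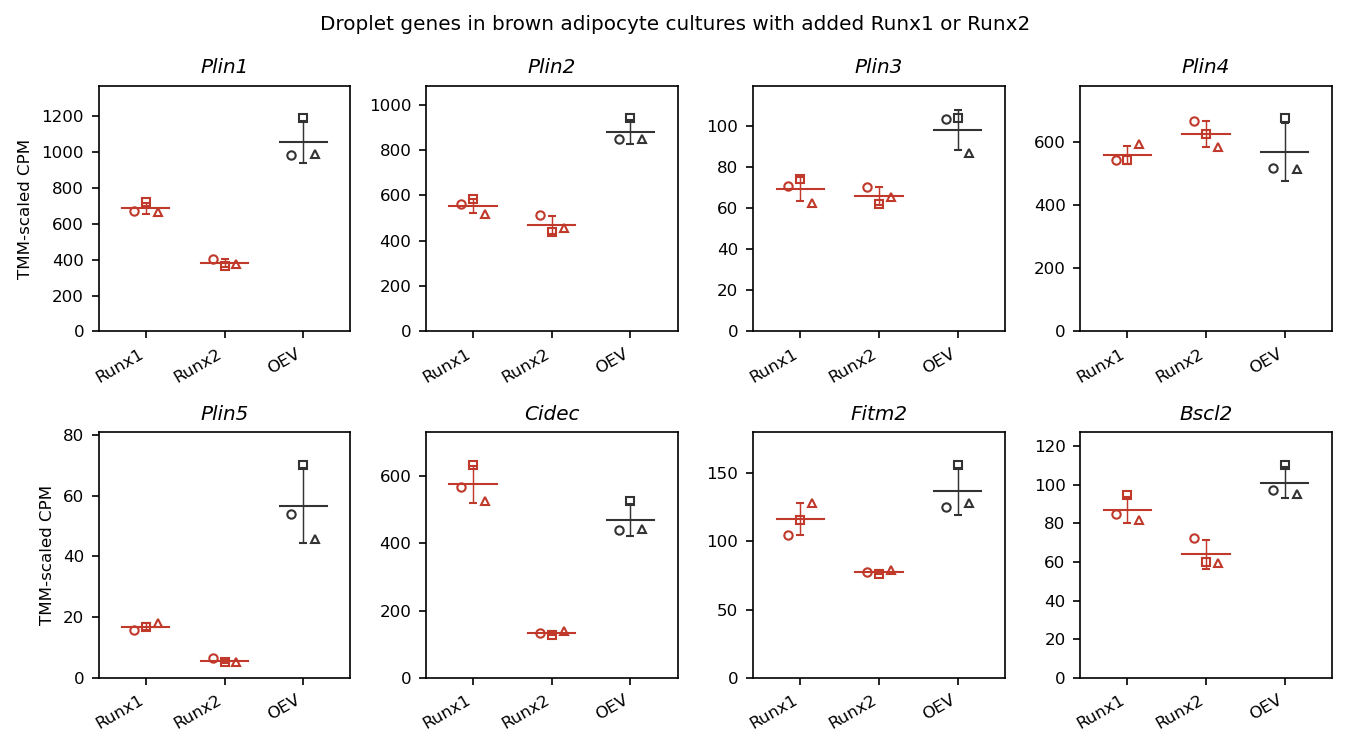
TMM-scaled CPM of each droplet gene (panels, axes from 0) in Runx1, Runx2 and OEV cultures; open symbols are libraries (circle, square and triangle for replicates 1, 2 and 3), lines are group means and bars 1 SD (n = 3). Cidec shows the split between the overexpressions, at 135, 128 and 139 CPM with Runx2 while Runx1 cultures reached 635 CPM.

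Fitm2, which partitions triglyceride into droplets, and Bscl2, the seipin gene, fell with Runx2 and did not pass the test with Runx1. Fitm2 measured 105, 116 and 128 CPM in Runx1 cultures, 77.6, 76.3 and 78.6 CPM in Runx2 cultures and 125, 156 and 128 CPM in OEV cultures. For Bscl2 the values were 85.0, 94.7 and 81.5 CPM with Runx1, 72.7, 60.0 and 59.4 CPM with Runx2 and 97.5, 110.5 and 95.3 CPM in OEV cultures. Only Fitm2 in Runx1 cultures overlapped its controls. With Runx2 the log2 fold change was -0.82 ± 0.11 (SE), adjusted p = 4.4e-05 for Fitm2, and -0.66 ± 0.11 (SE), adjusted p = 0.00024 for Bscl2. With Runx1 it was -0.23 ± 0.11 (SE), adjusted p = 0.084 for Fitm2, called at -0.31 (adjusted p = 0.025) without Runx1 replicate 3, and -0.22 ± 0.11 (SE), adjusted p = 0.11 for Bscl2. In the GENCODE M21 models exons of Fitm2 share bases with an antisense RNA, those of Bscl2 with Gng3 and another gene, and those of Plin4 with Hdgfl2. Whether the counting used strand is not given in the sources used here, so those 3 counts may hold reads of a neighbour.

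Set directly against Runx1 cultures, Runx2 cultures were lower in 5 of the 8 and higher in 0, where 21% of all genes tested were lower and 18.9% higher. The median log2 difference was -0.51 over the 8 genes and -0.021 over all genes tested. Both groups had more RNA of both factors than OEV cultures, so the factors cannot be fully told apart here. Cidec differed by -2.10 ± 0.10 (SE), adjusted p = 2.1e-07, Plin5 by -1.56 ± 0.16 (SE), adjusted p = 3.3e-05, and Plin1 by -0.85 ± 0.10 (SE), adjusted p = 6.9e-05. Fitm2 at -0.58 and Bscl2 at -0.44 were the other two lower genes. Plin2 at -0.24 ± 0.093 (SE), adjusted p = 0.061, Plin3 at -0.074 and Plin4 at 0.16 did not pass, though Plin2 did not overlap between the groups and passed by DESeq2 (adjusted p = 0.033) and, by edgeR, without the libraries with muscle transcripts, at -0.29 (adjusted p = 0.019).

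Another 3 lists were read beside the 8: other droplet surface genes, triglyceride synthesis enzymes and triglyceride lipases. With Runx2, 10 of 12 synthesis enzymes fell and 1 rose, 7 of 8 lipases fell and 1 rose, and 8 of 18 surface genes fell and 5 rose. With Runx1 the counts were 4 fallen and 1 risen, 4 fallen and 3 risen, and 3 fallen and 6 risen, in the same order. Of all genes tested, 29.6% fell and 31.3% rose with Runx2, and 25.8% fell and 28.2% rose with Runx1. Cidea, the brown fat relative of Cidec, averaged 4.06 ± 1.07 CPM in Runx1 cultures, 0.153 CPM in Runx2 cultures and 139 ± 42.1 CPM in OEV cultures, and fell with both (adjusted p = 2.1e-06 with Runx1 and 1.3e-07 with Runx2).

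Pnpla2, the first lipase of fat breakdown, averaged 311 ± 22.1 CPM in Runx2 cultures and 1193 ± 268 CPM in OEV cultures, a log2 fold change of -1.94 ± 0.15 (SE), adjusted p = 5.4e-07. Lpin1, a phosphatidate phosphatase of triglyceride synthesis, fell by 2.30 on the log2 scale with Runx2 and by 1.68 with Runx1. Gpat3, an acyltransferase at the start of that pathway, was the synthesis enzyme that rose with both, at 1.08 with Runx2 and 1.48 with Runx1. G0s2, an inhibitor of PNPLA2, fell by 2.10 with Runx2 and 0.55 with Runx1.

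Marker lists moved with the overexpression. Summed CPM of 10 macrophage genes ran 83.6 to 105 in Runx1, 512 to 589 in Runx2 and 13.1 to 15.8 in OEV cultures, with 7 to 9, 6 to 9 and 5 to 7 genes detected. Only 5 of the 10 were tested, with 3 called higher with Runx1, 4 higher with Runx2 and 0 lower. Of all genes tested, 28.2% rose with Runx1 and 31.3% with Runx2. Cd5l had 0 counts in every Runx2 library, Itgam in replicates 1 and 3, and Adgre1 and Cd163 in replicate 1. Summed CPM of 8 stromal progenitor genes ran 319.6 to 355 in Runx1, 569.6 to 614 in Runx2 and 80.1 to 118 in OEV cultures. Of the 6 tested, 3 were called higher and 0 lower with Runx1, and 3 higher and 1 lower with Runx2. The sum of 14 adipocyte genes ran 17012 to 18227 with Runx1, 10467 to 11410.5 with Runx2 and 14872 to 15884 CPM in OEV cultures. Of the 14, 5 were called higher and 3 lower with Runx1, and 0 higher and 10 lower with Runx2. Their median log2 fold change with Runx1 was -0.0017, against 0.058 over all genes tested, so the higher sum is not a rise of the list as a whole. The part of these lists in the droplet results was not tested, and in bulk RNA fewer cells of a type and less RNA per cell cannot be told apart. Cardiac muscle genes summed to 1668 CPM in Runx1 replicate 3 and to 109 and 438 CPM in OEV replicates 1 and 2. Without those libraries Plin5 kept its calls, at -1.49 (adjusted p = 1.3e-05) with Runx1 and -3.00 (adjusted p = 7.2e-09) with Runx2.

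Cultures labelled Runx1 or Runx2 knockout did not differ detectably from their control in any of the 8 genes. In each, 0 of the 8 passed edgeR's QL test, 0 had an unadjusted p under 0.05 and 0 passed DESeq2. Of all genes, 0.406% were called higher and 0.0295% lower in Runx1 knockout cultures, and 0.177% higher and 0.00738% lower in Runx2 knockout cultures. An unadjusted p under 0.05 was reached by 942 and 872 of all 13551 genes tested, in the same order. Log2 fold changes ran from -0.047 to 0.28 with the Runx1 knockout, and from -0.11 to 0.25 with the Runx2 knockout. Plin5 measured 63.1, 48.8 and 52.2 CPM in Runx1 knockout cultures, 58.7, 58.6 and 42.996 CPM in Runx2 knockout cultures and 46.9, 41.8 and 46.3 CPM in control cultures. The Runx1 knockout libraries all lay above the controls and the Runx2 knockout libraries overlapped them, at log2 fold changes of 0.28 (95% interval -0.09 to 0.65) and 0.25 (95% interval -0.12 to 0.62). Plin2 stood at 966, 921 and 886 CPM in Runx2 knockout cultures and 783, 802 and 843 CPM in control cultures, without overlap, and did not pass (0.19 ± 0.11 (SE), adjusted p = 0.9). The remaining members overlapped their controls in both single knockouts.

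With both factors knocked out, Plin5 and Plin2 were called higher and Plin3 lower. None of these calls held in every alternative fit. The Plin2 call was lost once the replicate number was a block, which tied same-numbered cultures of all groups of the table. The fit without the block, used for the values below, called 2 of the 8 higher and 1 lower, where 8.27% of all genes tested were higher and 7.01% lower. The median log2 fold change was 0.10 over the 8 genes and 0.022 over all genes tested. Plin5 measured 82.3, 56.1 and 61.9 CPM in double knockout cultures, against 46.9, 41.8 and 46.3 CPM in control cultures, without overlap (0.57 ± 0.17 (SE), adjusted p = 0.043). That call was lost without control replicate 1, 2 or 3 (edgeR QL adjusted p = 0.078, 0.14 and 0.099) and with the compared groups alone (0.16). Plin2 measured 1163, 952 and 989 CPM in double knockout cultures, against 783, 802 and 843 CPM in control cultures, again without overlap (0.35 ± 0.11 (SE), adjusted p = 0.045). With the replicate number as a block Plin2 was no longer called, at 0.35 (adjusted p = 0.072), nor was it with no filter on low counts, at 0.35 (adjusted p = 0.12). The macrophage sum ran 16.6 to 23.5 CPM in double knockout and 8.76 to 10.4 CPM in control cultures, without overlap, with 4 to 5 and 5 to 6 of its 10 genes detected and 2 of 3 tested called higher. The stromal progenitor sum overlapped, at 60.5 to 101 CPM in double knockout and 66.2 to 77.3 CPM in control cultures, with 2 of 5 tested genes called higher. Their part in the droplet values was not tested.

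Plin3 stood at 94.5, 114 and 113 CPM in double knockout cultures, 166, 162 and 165 CPM in Runx1 knockout, 165, 163 and 144 CPM in Runx2 knockout and 141, 172 and 156 CPM in control cultures. Every double knockout library lay below all 9 others. The log2 fold change was -0.54 ± 0.12 (SE), adjusted p = 0.0088 against control. It was also the 1 gene of the 8 called when the double knockout was set against each single one, at -0.62 ± 0.12 (SE), adjusted p = 0.01 against Runx1 knockout, and -0.55 ± 0.12 (SE), adjusted p = 0.017 against Runx2 knockout. The first call was lost without Runx1 knockout replicate 1 or 2 (adjusted p = 0.053 and 0.052) and with the compared groups alone (0.099). The second was lost without Runx2 knockout replicate 1 or 2 (0.083 each) and with the compared groups alone (0.16). In those comparisons 0 of the 8 were called higher, where 3.42% of all genes were higher and 3.03% lower than with Runx1 knockout, and 3.06% higher and 2.46% lower than with Runx2 knockout.

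A test of non-additivity, the double knockout effect less both single effects, called 0 of the 8 by edgeR's QL test, with 1 at an unadjusted p under 0.05 and 1 called by DESeq2. Of all genes, 0.00738% departed upward and 0.0369% downward by edgeR, and 1495 of 13551 had an unadjusted p under 0.05. The 1 gene was Plin3, at -0.63 ± 0.16 (SE), adjusted p = 0.26 by edgeR, and -0.63 (adjusted p = 0.025) by DESeq2. Without double knockout replicate 1 it was called by edgeR too, at -0.55 (adjusted p = 0.026).

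Double knockout replicate 1 stood apart from its group. Bscl2 measured 253, 134 and 114 CPM and Fitm2 56.3, 101 and 125 CPM in replicates 1, 2 and 3, against 124, 114 and 115 CPM and 108, 138 and 122 CPM in control cultures. Replicate 1 was the highest for Bscl2 and the lowest for Fitm2, and its adipocyte gene sum was 23484 CPM, against 13119.7 to 13836 CPM in control cultures. Neither gene passed the test (Bscl2 0.51 ± 0.23 (SE), adjusted p = 0.15, and Fitm2 -0.38 ± 0.22 (SE), adjusted p = 0.27). Without this library Cidec was called as well, higher at 0.38 (adjusted p = 0.03). Bscl2 was 0.088 (adjusted p = 0.53) without replicate 1, and was called higher without replicate 3, at 0.70 (adjusted p = 0.03). Without any 1 of the 3 control libraries only Plin3 was called, and in a fit of the double knockout and control libraries alone 0 were, with Plin3 at -0.54 (adjusted p = 0.14).

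Cidec stood at 633, 569 and 598 CPM in double knockout cultures, against 347, 494 and 513 CPM in control cultures, without overlap (0.41 ± 0.14 (SE), adjusted p = 0.077), and DESeq2 called it at 0.42 (adjusted p = 0.035). Plin1 and Plin4 overlapped their controls, at -0.16 and -0.15. Of the lists, 4 of 13 synthesis enzymes fell and 1 rose, with Dgat2, which makes triglyceride in its last step, at -1.20 ± 0.11 (SE), adjusted p = 6.9e-05. Among the 8 lipases 2 fell and 1 rose, with Pnpla2 at -1.03 ± 0.12 (SE), adjusted p = 0.00024. Of the 18 surface genes 1 rose, Hsd17b13, which averaged 0.631 CPM in double knockout and 0.078 CPM in control cultures. Of all genes tested, 7.01% fell and 8.27% rose in the double knockout. With the single knockouts 0 of the 39 list genes tested passed edgeR's QL test, with 5 and 4 at an unadjusted p under 0.05 and 2 called by DESeq2 in each. Of all 13551 genes tested, 942 and 872 had an unadjusted p under 0.05, with the Runx1 and the Runx2 knockout.

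**Figure D3:**
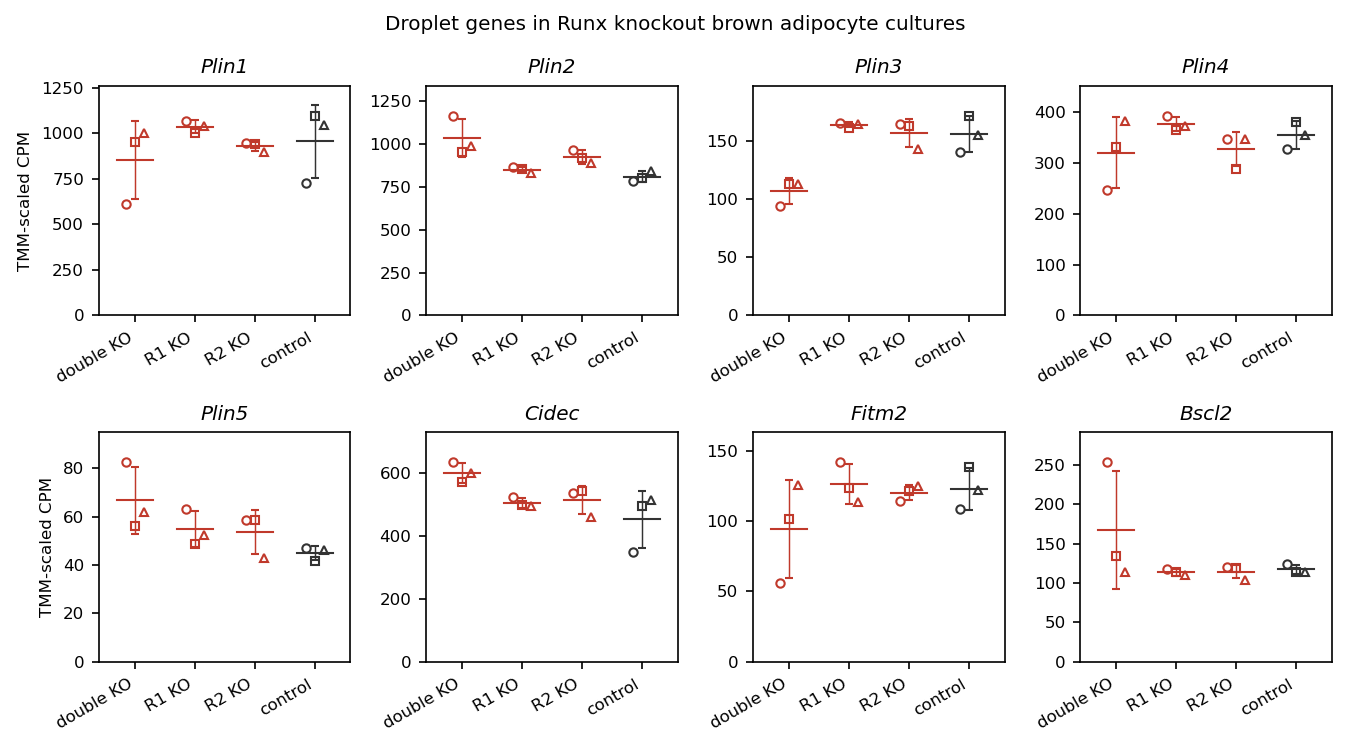
TMM-scaled CPM of each droplet gene (panels, axes from 0) in double knockout, Runx1 knockout (R1 KO), Runx2 knockout (R2 KO) and control cultures; open symbols are libraries (circle, square and triangle for replicates 1, 2 and 3), lines are group means and bars 1 SD (n = 3). Plin3 is lower in all double knockout libraries, and the circle of double knockout replicate 1 lies apart for Bscl2 at 253 CPM and for Fitm2 at 56.3 CPM.

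Cultures with IDR-deleted Runx2 had more Plin5 and Plin1 than those with full-length Runx2: 2 of the 8 were higher and 0 lower, where 1.51% of all genes tested were higher and 2.4% lower. The median log2 fold change was 0.10 over the 8 genes and 0.0016 over all genes tested. Plin5 measured 79.7 and 60.9 CPM with IDR-deleted and 48.8 and 43.3 CPM with full-length Runx2, and Plin1 measured 1074 and 1022 CPM with IDR-deleted and 817 and 861 CPM with full-length Runx2. Neither gene overlapped between the groups of 2. The log2 fold change of Plin5 was 0.61 ± 0.11 (SE), adjusted p = 0.0005, and that of Plin1 was 0.32 ± 0.072 (SE), adjusted p = 0.0046. Without full-length replicate 1 Plin1 was 0.28 (adjusted p = 0.16), and there the lone control library is assumed to vary like the other group.

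The authors' deposited table of this comparison holds both genes, Plin5 at a log2 fold change of 0.61 and Plin1 at 0.32. The other 6 ran from -0.21 to 0.17, the lowest being Fitm2 at 143 and 163 CPM with IDR-deleted and 179 and 176 CPM with full-length Runx2 (-0.21 ± 0.079 (SE), adjusted p = 0.14). Plin4, Cidec and Bscl2 lay above full-length libraries and Fitm2 below them without overlap, while Plin2 and Plin3 overlapped. None of these passed the test. The share of all genes without overlap between groups of 2 was not computed, so no difference is read from the lack of overlap. Fitm2 was -0.12 (adjusted p = 0.84) without IDR-deleted replicate 1 and called lower, at -0.32 (adjusted p = 0.0068), without replicate 2, each time with a lone IDR-deleted library that is assumed to vary like the full-length group. Runx2 itself averaged 129 ± 20.2 CPM with IDR-deleted and 294 ± 0.885 CPM with full-length Runx2 (SD, n = 2 each). Runx1 was lower too, at 3.85 ± 0.651 CPM with IDR-deleted and 8.21 ± 0.240 CPM with full-length Runx2 (edgeR QL adjusted p = 0.00033). The region and the amounts of Runx2 and Runx1 RNA therefore cannot be told apart. In another table, scaled separately, Runx2-overexpressing cultures had 309 CPM of Runx2, near the full-length value. Plin5 averaged 46.0 and Cidec 551 CPM with full-length Runx2. They averaged 5.72 and 134 CPM in Runx2-overexpressing cultures and 56.7 and 470 CPM in OEV cultures. What sets these cultures apart was not tested. In the lists, 1 of 17 surface genes rose (G0s2, 0.49 ± 0.083 (SE), adjusted p = 0.00024), 1 of 12 synthesis enzymes rose and 1 fell, and 2 of 8 lipases rose and 1 fell. Of all genes tested, 1.51% rose and 2.4% fell.

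**Figure D4:**
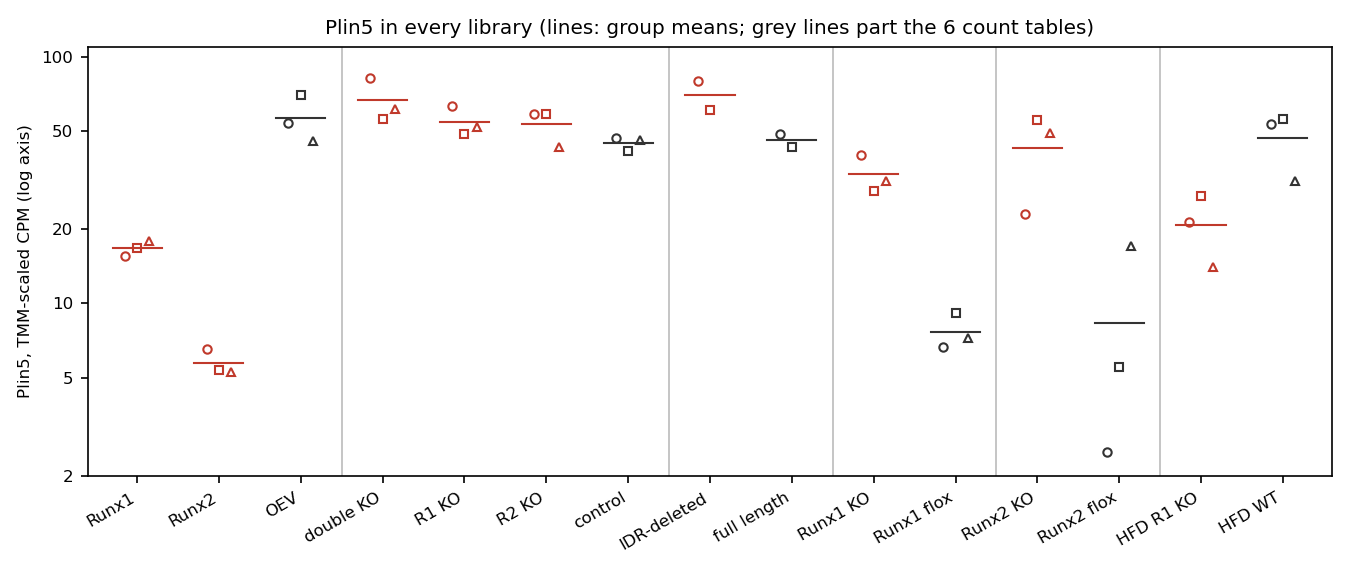
Plin5 in TMM-scaled CPM on a log axis in all 43 libraries; symbols are libraries, horizontal lines group means, red the perturbed and black the control groups, and grey lines part the 6 tables, which were scaled separately. Runx2-overexpressing cultures lie at 6.51, 5.37 and 5.27 CPM, below the 54.1, 70.2 and 45.7 CPM of OEV cultures in the same table. Full-length Runx2, drawn as a control group, lies at 48.8 and 43.3 CPM in another table.

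In Runx1 knockout IWAT, Plin5 and Plin3 rose and the other 6 genes did not pass the test. That is 2 of the 8 higher and 0 lower, where 4.45% of all genes tested were higher and 3.03% lower. The median log2 fold change was 0.045 over the 8 genes and -0.0037 over all genes tested. Plin5 measured 40.2, 28.6 and 31.3 CPM in knockout fat, against 6.67, 9.10 and 7.25 CPM in floxed control fat. The lowest knockout library was 28.6 CPM and the highest control 9.10 CPM, and the log2 fold change was 2.12 ± 0.19 (SE), adjusted p = 0.00071. It kept its call in every setting tried, leaving out single libraries included, with adjusted p up to 0.011.

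Plin3 measured 44.4, 53.6 and 42.9 CPM in Runx1 knockout fat and 22.0, 25.3 and 29.2 CPM in control fat, without overlap (0.88 ± 0.16 (SE), adjusted p = 0.013). The call was lost without knockout replicate 2, its highest library, at 0.78 (adjusted p = 0.086). Bscl2 also did not overlap, at 355, 355 and 328 CPM in knockout and 323, 299 and 185 CPM in control fat, but did not pass (0.36 ± 0.20 (SE), adjusted p = 0.28). Plin1, Plin2, Plin4, Cidec and Fitm2 overlapped between the groups, with log2 fold changes from -0.29 to 0.15.

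Skeletal muscle genes, 10 in the list, summed to 234, 17768 and 8171 CPM in knockout replicates 1, 2 and 3 and to 15.9, 7447 and 75.3 CPM in the controls. Without the 3 libraries with muscle transcripts (knockout replicates 2 and 3 and control replicate 2) Plin5 was 2.53 (adjusted p = 1.1e-08) and Plin3 0.79 (adjusted p = 0.15), with 1 knockout library left, which is assumed to vary like the controls. B cell genes, 7 in the list, summed to 1368 to 1730.2 CPM in knockout and 1425 to 1833 CPM in control fat, and macrophage genes to 1191 to 1384 CPM in knockout and 1055 to 1969.6 CPM in control fat, both with overlap and with 1 macrophage gene called lower. Endothelial genes, 7 in the list, summed to 582 to 829 CPM in knockout and 896 to 1166 CPM in control fat, without overlap, with 1 called lower. The part of these lists in the droplet values was not tested.

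Of the lists, 3 of 12 synthesis enzymes rose and 0 fell in Runx1 knockout IWAT, Gpam by 1.28, Agpat1 by 0.84 and Dgat2 by 0.67, enzymes of the first, second and last acylation. Among the 16 surface genes G0s2 rose, averaging 406 ± 118 CPM in knockout and 58.8 ± 24.4 CPM in control fat (2.79 ± 0.34 (SE), adjusted p = 0.0071), and Hilpda, another lipase inhibitor, fell (-1.20 ± 0.21 (SE), adjusted p = 0.012). Cidea averaged 80.5 ± 12.9 CPM in knockout and 17.9 ± 11.5 CPM in control fat (2.17 ± 0.51 (SE), adjusted p = 0.071). In the 3 lists together 5 of 36 genes were called, 14 had an unadjusted p under 0.05 and 11 were called by DESeq2. Of all genes tested, 4.45% rose and 3.03% fell by edgeR, and 3994 of 15896 had an unadjusted p under 0.05.

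In Runx2 knockout IWAT every library was higher than every control library for 7 of the 8 genes, all but Plin3, yet 0 of the 8 passed edgeR's QL test. At an unadjusted p under 0.05 there were 5, and DESeq2 called 2, Plin5 and Fitm2, higher. Of all genes tested, 0% were called higher and 0% lower by edgeR, with 3206 genes at an unadjusted p under 0.05 and 955 called by DESeq2, while in 13.7% every knockout library was above every control library. The median log2 fold change was 1.07 over the 8 genes and -0.041 over all genes tested.

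Plin5 measured 23.0, 55.8 and 49.4 CPM in Runx2 knockout fat and 2.49, 5.50 and 17.0 CPM in control fat (2.36 ± 0.69 (SE), adjusted p = 0.22). Fitm2 stood at 197, 185 and 202 CPM in knockout and 39.6, 59.3 and 121 CPM in control fat (1.41 ± 0.39 (SE), adjusted p = 0.22). Control replicate 3 was the highest control for both.

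Plin1 measured 1437, 1701 and 1422 CPM in knockout and 326, 589 and 1092 CPM in control fat. For Cidec the values were 7436, 6192 and 6235 CPM in knockout and 1485, 2263 and 5832 CPM in control fat. Plin4 stood at 4624, 4338 and 4845 CPM in knockout and 913, 1566 and 4022 CPM in control fat. In all 3 the control replicates 1 and 2 were low and replicate 3 lay between them and the knockout libraries. Plin2 and Bscl2 showed the same layout, at 510.2, 382 and 483 CPM in knockout and 191, 179 and 364 CPM in control fat for Bscl2, and at 1039.8, 1151 and 1329 CPM in knockout and 329, 512 and 893 CPM in control fat for Plin2. Log2 fold changes of these 5 ran from 0.91 to 1.18, with adjusted p from 0.22 to 0.27. Plin3, at 29.8, 36.2 and 30.9 CPM in knockout and 29.7, 30.2 and 36.1 CPM in control fat, overlapped (0.014, 95% interval -0.36 to 0.39).

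Control replicate 3 of this table differed from its group in other genes. Skeletal muscle genes summed to 142 to 463 CPM in knockout libraries and to 50.5, 78.3 and 7656 CPM in control replicates 1, 2 and 3. B cell genes summed to 244 to 550.3 CPM in knockout libraries and to 1680.1, 1677 and 283 CPM in the controls, and the 14 adipocyte genes to 70399 to 87522 CPM in knockout libraries and 30023, 30940.2 and 70802 CPM in the controls. The controls with low droplet genes were also those with high B cell and low adipocyte sums. The part of these in the droplet values was not tested.

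Without control replicate 3, 7 of the 8 were called higher by edgeR, where 20.9% of all genes tested were, and the median log2 fold change was 1.78 over the 8 and 0.0016 over all genes. Plin5 was then 3.42 (adjusted p = 0.0016) and Bscl2, the smallest of the 7, 1.31 (adjusted p = 0.00081). In that fit 12 of the 14 adipocyte genes were called higher and 7 of the 7 B cell genes lower. Of all 15875 genes tested there, 3317 were called higher and 3037 lower. With all libraries 0 of the 36 list genes passed edgeR's QL test, with 12 at an unadjusted p under 0.05 and 7 called by DESeq2. Of all 15574 genes tested, 3206 had an unadjusted p under 0.05, and DESeq2 called 955 genes. Cidea averaged 144 ± 78.3 CPM in knockout and 19.5 ± 8.64 CPM in control fat (2.89 ± 0.53 (SE), adjusted p = 0.22).

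**Figure D5:**
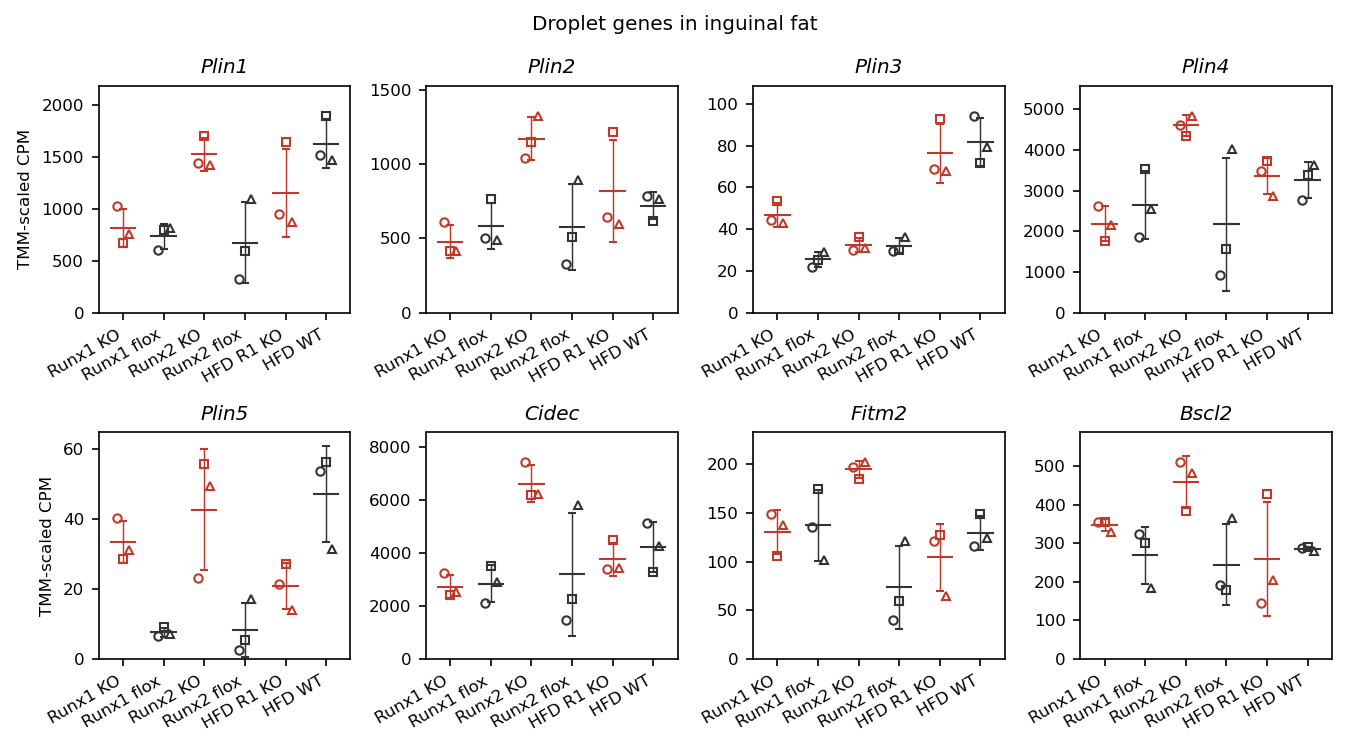
TMM-scaled CPM of each droplet gene (panels, axes from 0) in the 3 fat tables, each knockout left of its control (HFD R1 KO is Runx1 knockout labelled HFD); open symbols are libraries (circle, square and triangle for replicates 1, 2 and 3), lines are group means and bars 1 SD (n = 3). The triangle of Runx2-floxed control replicate 3 lies above its 2 fellow controls in all 8 panels, as with Cidec at 5832 CPM.

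In fat labelled HFD, 0 of the 8 genes passed edgeR's QL test between Runx1 knockout and wild type, with 1, Plin5, at an unadjusted p under 0.05 and called by DESeq2. Of all genes tested 0.0465% were higher and 2.07% lower, and 1280 of 15058 had an unadjusted p under 0.05. The median log2 fold change was -0.15 over the 8 genes and 0.0057 over all genes tested. Plin5 measured 21.4, 27.3 and 14.1 CPM in HFD knockout fat, against 53.7, 56.3 and 31.3 CPM in HFD wild-type fat, without overlap (-1.17 ± 0.29 (SE), adjusted p = 0.075). The authors' deposited table, a list of 403 genes, holds Plin5 at -1.17 with an adjusted p of 0.0081. In edgeR it was called with no filter on low counts (adjusted p = 0.027) and without wild-type replicate 3, the lowest wild-type library, at -1.40 (adjusted p = 0.044).

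The other 7 genes overlapped between the HFD groups, with log2 fold changes from -0.50 to 0.19. Plin2 varied among the knockout libraries, at 647, 1216 and 599.7 CPM in HFD knockout and 783, 616 and 764 CPM in HFD wild-type fat, and Bscl2 likewise, at 146, 427 and 205 CPM in HFD knockout and 287, 289.9 and 279 CPM in HFD wild-type fat. Knockout replicate 2 was the highest library for both. B cell genes summed to 2.99 to 4.96 CPM in HFD knockout and 181 to 421 CPM in HFD wild-type fat, and the part of this in the Plin5 values was not tested. Of 36 list genes 0 passed edgeR's QL test, with 3 at an unadjusted p under 0.05 and 1 called by DESeq2. Of all 15058 genes tested, 1280 had an unadjusted p under 0.05, and the share called by DESeq2 is not given here. Cidea averaged 18.5 ± 5.48 CPM in HFD knockout and 48.9 ± 35.0 CPM in HFD wild-type fat (-1.41 ± 0.42 (SE), adjusted p = 0.19).

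Plin5 lay on opposite sides of its controls in the 2 Runx1 knockout fat tables. A fit that joined both tables, chosen after their values were seen, tested the difference between the knockout effects. The knockout effect in HFD fat less that in the other fat was -3.31 ± 0.38 (SE) on the log2 scale for Plin5 (edgeR QL adjusted p = 0.00023), and -1.002 ± 0.25 (SE) for Plin3 (adjusted p = 0.037). The Plin3 call was lost in 9 of 12 fits with a library left out (adjusted p up to 0.16), with DESeq2 size factors (0.054) and without libraries with muscle transcripts (0.47). That is 2 of the 8 lower and 0 higher, where 3.3% of all genes were lower and 1.1% higher. The wild-type levels of the HFD table and the floxed levels of the other differ for Plin5 too, 53.7, 56.3 and 31.3 CPM against 6.67, 9.10 and 7.25 CPM. The table, its controls and the HFD label cannot be told apart in this comparison.

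Across all 43 libraries, each gene centred on its own table's mean of log2(CPM + 1), the genes most like each member were found among 12330 genes tested in all tables, as a description in which libraries share groups and depth. Plin5 was most like Idh3a, a subunit of an enzyme of the tricarboxylic acid cycle, and Sod2, the superoxide dismutase of mitochondria (Pearson r = 0.955 and 0.949). Plin1 was most like Cs (0.922), and Bscl2 most like Mdh1 and Mdh2 (0.912 and 0.889), enzymes of the same cycle or, for Mdh1, its cytosolic counterpart. Cidec was most like Lipe, the hormone-sensitive lipase, and Ech1 (0.910 and 0.884). For Fitm2 they were Cnnm2 and Abhd15 (0.944 and 0.938), for Plin2 Arf1 and Cdip1 (0.859 each), for Plin3 Pgpep1 and Inppl1 (0.866 and 0.838), and for Plin4 Scarb1 and Mmp28 (0.876 and 0.872). Among the 8 themselves r ran from 0.0654 between Plin3 and Plin4 to 0.859 between Plin1 and Fitm2, and Plin3 had no r above 0.533.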

How the data were processed

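RNA of 25 cultures and 18 fat samples was analysed in 15 labelled groups. The labels name fastp, STAR, featureCounts and mm39, per the submitters' processing notes, with versions not given in the sources used here. The authors deposited 6 tables of raw counts, one line per gene symbol, and these were used; of values from 1 to 19, 71.1 to 81.9% were even. The deposited lists of changed genes hold the authors' own log2 fold changes and adjusted p-value, and their 10 per-sample columns were not used.

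Each table was fitted with all its groups in edgeR 4.0.16 under R 4.3.3 (filterByExpr, TMM, robust QL test, Benjamini-Hochberg adjustment over all genes tested, calls below 0.05), as tested on simulated data. In all, 13 contrasts were made as planned and 1 was added later. Alternatives were DESeq2 1.42.0 (scaling, or its Wald test), leaving out the filter on low counts, a block for the replicate number, the compared groups alone, single libraries left out, and no libraries with muscle transcripts (a cardiac or skeletal sum above 100 CPM and 20 times the lowest of the table). Exon lengths, overlaps and promoters came from GENCODE M21 and RefSeq, not the build of the counts. Named are the 8 genes, Runx1, Runx2, Cidea, up to 3 called genes of largest change per droplet list (in part), and the 2 genes of most similar pattern, of which 1 is not reported here. Replicate numbers, which the labels tie to no animal or batch, were taken to pair double knockout and control cultures, since deviations of all 3 same-numbered pairs correlated above 0.1 (0.307, 0.31 and 0.108), and no other compared groups. The values reported for the double knockout come from the fit without this pairing. It entered only as the block, which covered all groups of the table and so also tied the single knockout cultures by number. The 8 genes and all lists were chosen with earlier results of these data known. Figures used Python 3.11.15 and matplotlib 3.10.9.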

Additional observations from a re-analysis of the deposited data

Results flagged for a closer look

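For 2 droplet genes, Plin5 and Plin3, the Runx1 knockout effect differed between the fat labelled HFD and the other fat, by a test of the difference itself. For Plin5 the difference was -3.31 on the log2 scale (95% interval -4.12 to -2.49): every knockout library was lower than every wild-type library in HFD fat, and every knockout library was higher than every control in the other fat. It was called in all alternatives run, with adjusted p up to 0.002. For Plin3 the difference was -1.002 (95% interval -1.54 to -0.46), and its call was lost with most single libraries left out, at adjusted p up to 0.16, with DESeq2 size factors (0.054) and without libraries with muscle transcripts (0.47). The table, its controls and the HFD label cannot be told apart.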

How the results depend on the processing

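Counts of the 8 genes called stayed within 1.5 times of the reported count under all alternatives run for both overexpressions, for Runx2 against Runx1 overexpression and for both single knockout cultures. They moved in the other comparisons. For the double knockout against control 0 of 3 were left in a fit of the compared groups alone, and 1 to 4 with a library left out. Against Runx1 knockout the 1 gene became 2 by DESeq2 and 0 with the groups alone (0 to 2 with a library left out), and against Runx2 knockout 0 with the groups alone (0 to 2). The departure from additivity gave 1 by DESeq2 (0 to 1 with a library left out), and IDR-deleted Runx2 gave 1 to 3 in place of 2 with a library left out. Runx1 knockout IWAT gave 1 without muscle libraries and 1 to 2 with a library left out. Runx2 knockout IWAT gave 2 by DESeq2, 7 without the muscle library and 0 to 7 with a library left out. HFD fat gave 1 with no count filter, 1 with the replicate block, 1 by DESeq2 and 0 to 1 with a library left out. The difference between the 2 Runx1 knockout fat tables gave 1 with DESeq2 size factors, 1 without muscle libraries and 1 to 2 with a library left out. The cause of these moves was not tested.

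Correlations of deviations between same-numbered libraries exceeded 0.1 in all 3 pairs of double knockout and control cultures, which were taken as paired. In no other compared groups did every pair exceed it: 2 of 9 pairs did in the overexpression cultures, 0 of 2 with IDR-deleted or full-length Runx2, 2 of 3 in each IWAT table and 0 of 3 in HFD fat. With the replicate block Plin5 in HFD fat was -1.18 (adjusted p = 0.048) and Plin2 in the double knockout 0.35 (adjusted p = 0.072); it changed no other call of the 8.

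Of all single values of the 8 under these alternatives, 1175 kept both their sign and whether they were called, whatever their size. A call was lost in 38 and gained in 36, and 55 uncalled values changed sign. The lowest count of any of the 8 was that of Plin5, 104 in a Runx2-floxed control library.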
